A study of Mus musculus with 10 samples.

Results

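Goblet cells were examined among single cells sorted from crypts of the small intestine of C57Bl/6 mice. Wells were chosen by measured values: a well was called a mature goblet well when 6 goblet genes together (Muc2, Fcgbp, Zg16, Clca3, Tff3 and Agr2) made up at least 2% of its molecules and the cycle genes Mki67 and Top2a together gave fewer than 5 molecules. Of 1615 sorted wells with at least 1000 molecules of mouse genes, 389 met the rule, which is 24.1%. The remaining 1226 wells of the same plates, called other wells here, hold every other cell class. They also hold 97 wells that passed the 2% limit but had 5 or more cycle molecules, called cycling goblet-signature wells.

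The 7 sorted libraries, each a plate of 384 wells, were made by CEL-seq2, which primes at the poly(A) tail, amplifies linearly and counts molecules by random barcodes. The sample titles divide them by an experiment code that they do not explain. There are 2 GK5b libraries, numbered 1 (code ending in G) and 2 (ending in L), and 5 GK5a libraries. All are described as sorted single cells of small intestinal crypts from the same strain, with no genotype, treatment, age or sorting gate given, and nothing says which libraries came from separate animals. The p-values below therefore reflect variation from library to library, part or all of it possibly technical, and code cannot be told apart from plate, animal or day.

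Goblet cells arise from dividing crypt progenitors in which the transcription factor Atoh1 escapes repression by Notch signalling. They make mucins, very large glycoproteins that are folded and disulfide-linked in the endoplasmic reticulum (ER), heavily O-glycosylated in the Golgi apparatus, packed into apical granules and released to form the mucus layer. The 6 rule genes encode the gel-forming mucin Muc2, the mucus proteins Fcgbp, Zg16 and Clca3 (named Clca1 in current annotation), the trefoil peptide Tff3, and Agr2, an ER disulfide isomerase needed for mucin assembly.

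The rule genes chose the wells, so their levels are a description and were not tested. In the annotation of the mm10 assembly, 3 of them lie on chromosome 7: Muc2 at chr7:141690340-141754693, Fcgbp at chr7:28071236-28120862 and Zg16 at chr7:127050156-127087328. Tff3 lies at chr17:31125306-31129646, Agr2 at chr12:35992907-36004087 and Clca3 at chr3:145003817-145032776. All 6 are protein-coding genes, and the measured tags come from their 3′ ends. As a share of the pooled molecules of a library, Tff3 gave 3.12 ± 0.416% in goblet wells and 0.188% in other wells (mean, SD over 7 libraries for goblet wells). Zg16 gave 2.96 ± 0.978% against 0.0655%, and Muc2 gave 2.16 ± 0.303% against 0.131%. Fcgbp stood at 1.32 ± 0.412% against 0.0880%, Agr2 at 1.06 ± 0.180% against 0.0846%, and Clca3 at 0.544 ± 0.178% against 0.0189%, goblet wells first in each pair.

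Within goblet wells the 6 genes did not move as 1 block. Tff3 was detected in all 389 wells and was the highest of the 6 in 216 of them, Zg16 was the highest in 83 and Muc2 in 71. All 6 were detected in 320 wells, 5 in 50 wells and 4 in 16. Clca3 was missing from 53 goblet wells and Zg16 from 30. Over wells of the same library, the levels of Muc2 and Tff3 had a median Spearman rho of 0.74, as did Zg16 and Clca3. Agr2 stood apart from the other 5, with median rho between -0.15 (with Fcgbp) and 0.23 (with Clca3). These rank correlations are descriptions over wells that share a library and the gate.

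The summed rule genes took a median of 9.99% of a goblet well's molecules in GK5b library 1 and 8.49% in GK5b library 2. In GK5a libraries 1 to 5 the medians were 7.54%, 10.6%, 6.59%, 7.44% and 9.10%. Single wells reached 50.3%. The limit fell in a thinly filled stretch: the lowest 3 wells inside it stood at 2.16%, 2.17% and 2.36%, the highest 3 outside it at 1.93%, 1.90% and 1.87%, and 21 wells in all lay between 1% and 2%. At the limit on cycle molecules, 13 wells were kept with 4 molecules and 3 were left out with 5.

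Goblet wells made up 50.4% of used wells in GK5b library 1 (133 of 264, 95% exact Clopper-Pearson interval 44.2 to 56.6) and 37.2% in GK5b library 2 (97 of 261, 31.3 to 43.3). In GK5a libraries 1 to 5 they made up 16.4% (31 of 189), 12.6% (29 of 230), 15.5% (36 of 233), 14.3% (32 of 224) and 14.5% (31 of 214), with intervals spanning 8.61 to 22.5 over the 5 libraries. Both GK5b libraries lay above every GK5a library. The mean was 43.8% in GK5b against 14.6% in GK5a, a difference of 29.1 percentage points (two-sided exact permutation test over libraries, p = 0.0952). That is the smallest p that 2 against 5 libraries allow, so the comparison could not pass 0.05. A sorting gate, not given for either code, can set these shares. The limit on cycle molecules, set in molecules and not in shares, moved the size of the difference. It was 41.1 points with no such limit and 18.3 points with a limit of under 2 molecules.

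**Figure D1:**
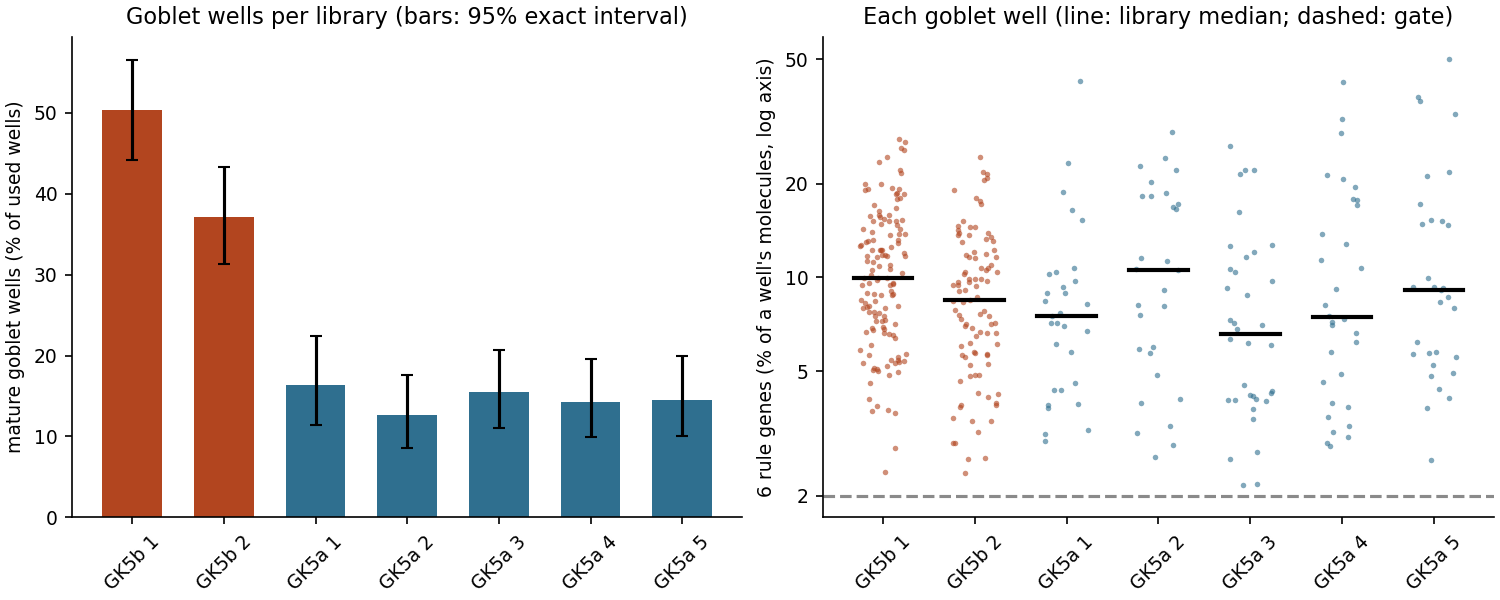
Left, goblet wells as a percentage of used wells in each library, with 95% exact intervals; right, the summed share of the 6 rule genes in every goblet well on a log axis, with the library median as a line and the 2% limit dashed. GK5b libraries (orange) reach 50.4% and 37.2%, and GK5a libraries (blue) lie between 12.6% and 16.4%, while the medians on the right overlap between the codes.

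GK5b library 1 was unusual in its other wells as well. It held 65 of the 97 cycling goblet-signature wells, against 9 in GK5b library 2 and 2, 10, 3, 4 and 4 in GK5a libraries 1 to 5. Of its 131 other wells, 118 had 5 or more cycle molecules. The rule genes took a median of 1.75% of molecules in its other wells, against 0.205% in GK5b library 2 and 0.0138% to 0.0413% in GK5a. The 65 wells above the 2% limit are among those 131, so this median is not a separate observation. All 21 goblet markers tested below had their smallest difference against other wells in this library, whose other pool holds those 65 wells.

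Goblet wells held fewer molecules than other wells of the same plate. Median molecules per goblet well were 10577 and 11325 in the GK5b libraries and 3108, 6974, 4082, 3695 and 4890 in the GK5a libraries. Other wells held 22129 and 16082 in GK5b and 3382, 8245, 7302, 5886 and 7479 in GK5a. Goblet wells were lower in 7 of 7 libraries, with a mean log2 difference of -0.58 (SD 0.33) and a two-sided exact sign-flip permutation p of 0.0156, the smallest that 7 libraries allow. Relative to the spike-in molecules of each well the difference was -0.56 (exact p = 0.0312) and goblet wells were lower in 6 of 7 libraries, the exception being GK5a library 1, with a log2 ratio of 4.36 in goblet wells and 4.31 in other wells. Within GK5a alone the difference was -0.50 (exact p = 0.0625) and within GK5b -0.79 (exact p = 0.5), where neither set can pass 0.05. The limit on Mki67 and Top2a is set in molecules and not in shares. With no such limit the difference was -0.49, and with a limit of under 2 molecules it was -0.68 (exact p = 0.0156 for each).

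At an equal depth of 2000 molecules, goblet wells also held fewer genes. They had a median of 1080 and 1088 genes in GK5b and 1118, 1056, 1112, 1082 and 1130 in GK5a, against 1244 and 1239 in other wells of GK5b and 1208, 1212, 1218, 1212 and 1220 in GK5a. The mean difference was -127 genes (SD 31.4, exact sign-flip p = 0.0156). With the rule genes taken out before thinning, an alternative added after the data were seen, the difference shrank to -35.7 genes (exact p = 0.0312).

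Genes outside the rule were compared in pooled goblet wells and pooled other wells of the same library. Levels are given in CPM, the usual count per scaled library total (1 molecule standing for 1 transcript, with the 8 rule and limit genes left out of totals), and differences as log2(CPM + 10) from limma, paired by library, with Benjamini-Hochberg adjusted p under 0.05 as the call. Of 3816 genes tested, 1030 were higher in goblet wells (27.0%) and 1143 lower (30.0%), around a median difference of -0.05. Without GK5b library 1 there were 973 higher and 1077 lower. Because the wells were split on genes measured in those same wells, a call says that a difference recurred from library to library, and genes known to accompany the rule genes are not independent evidence for the label. A gene entered with a mean of at least 50 CPM over all pools, so genes low in other wells could enter through goblet wells alone. Counts of list members called below are to be read beside the 27.0% and 30.0% of all genes.

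Goblet markers that the rule left out were read as a description of the chosen wells, from a list made with earlier results of these data known. Of 22 listed, 21 were tested and all 21 were higher, with a median log2 difference of 3.51 (27.0% of all genes were called higher). Some passed the filter of 50 CPM over all pools only through goblet wells. Capn9 averaged 272 CPM in goblet pools and 13.6 CPM in other pools, and Bcas1 391 and 18.9 CPM. The count is therefore no test of the label. Spink4, a secreted protease inhibitor of goblet cells at chr4:40920052-40931395, ranged over 5215, 14368 and 17463 CPM (lowest, median and highest library) in goblet wells, against 85.6, 311 and 3092 CPM in other wells (log2 difference 4.70, SE 0.34, adjusted p = 2.48e-07). Every goblet pool lay above every other pool. The share of all tested genes with such a gap is not given here, so the gap does not set Spink4 apart. Guca2a, the precursor of the guanylyl cyclase ligand guanylin, ranged over 6009, 8655 and 12895 CPM in goblet wells against 143, 416 and 1435 CPM in other wells (4.55, SE 0.28, adjusted p = 9.78e-08). Retnlb, a secreted resistin-like antibacterial protein, stood at 1606, 2407 and 7209 CPM in goblet wells against 42.7, 82.4 and 949 CPM in other wells (4.50, SE 0.26, adjusted p = 8.15e-08). In all 3 genes the highest other pool was GK5b library 1.

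The 15 largest rises with the same sign in every library were, after Spink4, Ccl6 (a chemokine, 4.56), Guca2a and Retnlb, Klk1 (tissue kallikrein, 4.40), Rep15 (a Rab15 effector, 4.33), Tpsg1 (a tryptase, 4.27), S100a6 (a calcium-binding protein, 4.23), Bcas1 (4.19), Capn9 (a calpain protease of the gut, 3.83), Rgs2 (a regulator of G-protein signalling, 3.78), Kcnk6 (a potassium channel, 3.76), Bace2 (an aspartyl protease, 3.72), Ano7 (an anoctamin, 3.70) and Syt7 (a calcium sensor of exocytosis, 3.66). Rgs2 had the smallest p of these together with Scin, an actin-severing protein: Rgs2 ranged from 322 to 768 CPM in goblet wells against 10.3 to 55.7 CPM in other wells (SE 0.14, adjusted p = 8.77e-09). Scin stood at 491, 626 and 962 CPM in goblet wells against 22.7, 56.0 and 72.7 CPM in other wells (3.51, SE 0.13). In all, 844 of the genes called higher and 865 of those called lower had the same sign in every library.

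**Figure D2:**
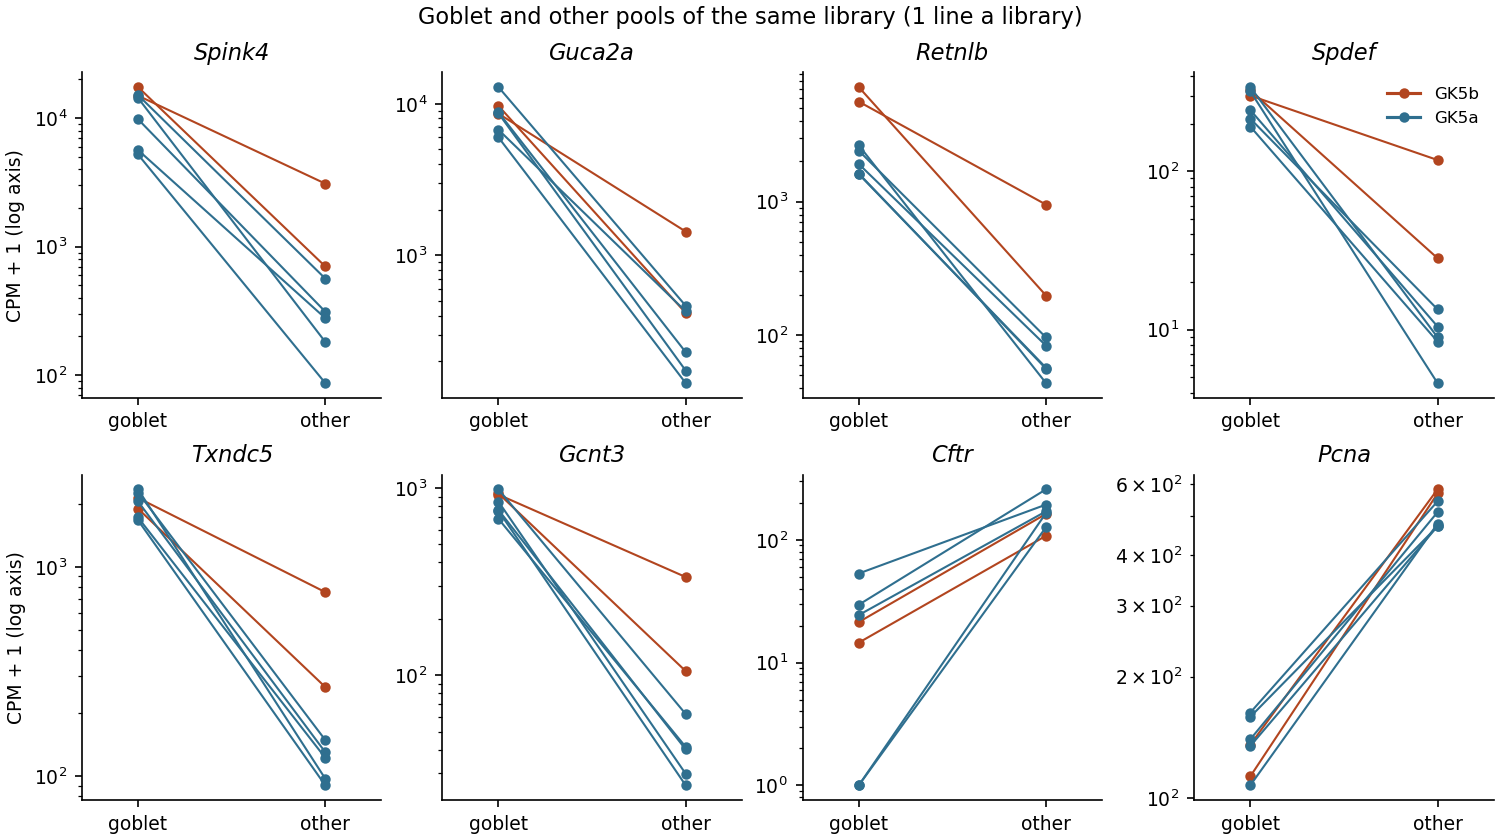
CPM + 1 on log axes in goblet pools (left point) and other pools (right point) of 7 libraries, 1 line for each library, GK5b in orange and GK5a in blue. Spink4, Guca2a, Retnlb, Spdef, Txndc5 and Gcnt3 fall along every line to the other wells while Cftr and Pcna rise, and the uppermost orange line on the right in the goblet genes is GK5b library 1.

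The regulators of secretory fate were divided. Of 22 listed, 13 were tested, 9 were higher and 3 lower (median 0.65), against 27.0% of all genes called higher and 30.0% called lower. Atoh1, the factor that commits progenitors to the secretory lineage, ranged over 392, 497 and 619 CPM in goblet wells against 14.8, 26.8 and 230.4 CPM in other wells (3.41, SE 0.30, adjusted p = 1.07e-06). Spdef, which drives goblet maturation, ranged over 191, 299 and 339 CPM against 3.59, 9.45 and 117 CPM, goblet wells first (3.41, SE 0.30, adjusted p = 1.20e-06). Neither gene's goblet pools overlapped its other pools, a gap whose share over all tested genes is not given here. Klf4, a factor of terminal goblet differentiation, was higher by 2.81, the forkhead factor Foxa3 by 2.46 and Foxa1 by 1.56. The Notch ligand Dll1 was higher by 2.08, with 115, 186 and 419 CPM in goblet wells and 18.0, 24.8 and 99.9 CPM in other wells. The Notch target Hes1, a repressor of Atoh1, was lower in 7 of 7 libraries, with 40.4, 67.2 and 99.4 CPM in goblet wells against 102, 197 and 215 CPM in other wells (-1.26, SE 0.14, adjusted p = 9.94e-06). Cdx2 and Hnf4a, factors of intestinal and absorptive identity, were lower by smaller amounts (-0.75 and -0.64). Sox9 was not called (0.23, SE 0.11, adjusted p = 0.110).

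Genes of mucin O-glycosylation were mostly higher: of 34 listed, 18 were tested, 14 were higher and 1 lower (median 1.65). Gcnt3, which makes the branched core of mucin glycans, ranged over 684, 845 and 983 CPM in goblet wells against 24.8, 40.4 and 333 CPM in other wells (3.57, SE 0.29, adjusted p = 6.54e-07). The initiating transferases Galnt12 (2.95) and Galnt7 (2.40), the sulfotransferase Chst4 (2.91), the core 1 synthase C1galt1 (2.04) and its chaperone C1galt1c1 (2.39) were higher too. Galnt2 (0.12), B4galt1 (0.37) and St6galnac2 (-0.19) were not called, and the sialyltransferase St3gal4 was lower (-0.51, adjusted p = 0.0213, lower in 5 of 7 libraries). The supply of sugar donors moved with them: of 21 listed genes, 18 were tested and 17 were higher (median 1.46). Gfpt1, the entry enzyme of the hexosamine pathway, stood at 659, 801 and 1261 CPM in goblet wells and 134, 139 and 538 CPM in other wells (2.17, SE 0.14). The sialic acid synthase Nans rose by a similar amount (2.08), and the sulfate donor enzyme Papss2 did not pass (-0.02).

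Of 35 genes of ER folding and ER-associated degradation, 32 were tested, 30 were higher and none was lower (median 1.35). Txndc5, an ER thioredoxin-family disulfide isomerase, stood at 1668, 2051 and 2345 CPM in goblet wells against 89.3, 129 and 755 CPM in other wells (3.47, SE 0.28, adjusted p = 5.58e-07). Fkbp11 (3.27), Pdia5 (3.11) and the disulfide reductase Dnajc10 (2.78) followed it. The chaperone Hspa5, which binds unfolded chains in the ER, had 1544, 1953 and 2862 CPM in goblet wells and 571, 599.7 and 1250 CPM in other wells (1.52, SE 0.07, adjusted p = 5.06e-08). The lectin chaperone Canx was not called (0.17, SE 0.08, adjusted p = 0.0956), nor was the oxidase Ero1l (0.32). Genes of ER translocation and N-glycan transfer were higher in 30 of 31 tested (median 1.09), with Sec61b at 1.76 and Stt3b not called (-0.04). Genes of ER to Golgi transport were higher in 36 of 38 tested (median 0.98), led by the KDEL receptor Kdelr3 (3.28), the cargo receptor Tmed3 (2.58) and the COPII coat subunit Sec24d (2.11), with Sar1b lower (-0.33, adjusted p = 0.0200).

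All 6 tested regulators of the unfolded protein response were higher, of 12 listed (median 2.35, with 27.0% of all genes called higher). The filter of 50 CPM over all pools favours genes high in goblet wells, and the entry of Ern2 rested mainly on its goblet pools. Ern2, the IRE1 sensor restricted to mucus-secreting epithelium, stood at 240.0, 489 and 520.2 CPM in goblet wells against 8.43, 12.4 and 132 CPM in other wells (3.62, SE 0.26, adjusted p = 2.49e-07). The membrane-bound factors Creb3l1 (3.33) and Creb3l4 (3.20) rose by similar amounts. Xbp1, the factor whose mRNA IRE1 splices, rose by 1.50, Atf4 by 0.99 and Atf6 by 0.60 (adjusted p = 0.00764). The 3′ tags do not tell spliced from unspliced Xbp1 mRNA.

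Because the ER folding genes moved together, their promoters were read for the ER stress element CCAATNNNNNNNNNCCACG, on both strands of RefSeq windows from 250 bases before to 50 bases after each gene's start (assembly GRCm38.p6). It occurs in the windows of 37 of 27025 genes (0.137%), of 10 of the 2918 tested genes with a window (0.343%) and of 9 of the 29 ER folding genes with one (31.0%). Of those 9 genes, 8 were tested and 7 were higher in goblet wells, Canx being the exception. In the whole list 30 of 32 tested were higher, so genes with the element were not called more often than the list. The 31.0% is a property of the listed genes and not a result about goblet wells. The other 22 lists held no match. The 7 stretches are shown 5′ to 3′ on the gene's strand, because they are the sequence these genes share, with the element in capitals.
Hspa5, chr2:34772005-34772063, gene on the plus strand, motif on the same strand: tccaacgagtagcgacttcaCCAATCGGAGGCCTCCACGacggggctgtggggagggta
Hsp90b1, chr10:86705618-86705676, gene on the minus strand, motif on the same strand: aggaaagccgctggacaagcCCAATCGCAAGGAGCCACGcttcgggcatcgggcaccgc
Calr, chr8:84847055-84847113, gene on the minus strand, motif on the opposite strand: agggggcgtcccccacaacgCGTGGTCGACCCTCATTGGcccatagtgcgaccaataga
Pdia6, chr12:17266471-17266529, gene on the plus strand, motif on the same strand: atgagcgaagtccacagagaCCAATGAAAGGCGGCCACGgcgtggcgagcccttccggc
Dnajc3, chr14:118937807-118937865, gene on the plus strand, motif on the same strand: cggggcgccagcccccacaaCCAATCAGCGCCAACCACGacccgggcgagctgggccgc
Creld2, chr15:88819500-88819558, gene on the plus strand, motif on the opposite strand: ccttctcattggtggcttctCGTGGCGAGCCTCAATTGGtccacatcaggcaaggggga
Syvn1, chr19:6046512-6046570, gene on the plus strand, motif on the same strand: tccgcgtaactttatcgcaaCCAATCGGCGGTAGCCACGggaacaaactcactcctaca
Their log2 differences were 1.52 for Hspa5, 1.03 for Hsp90b1, 1.62 for Calr, 2.07 for Pdia6, 1.30 for Dnajc3, 1.43 for Creld2 and 1.59 for Syvn1, all in 7 of 7 libraries. The genes with the largest rises in the list, Txndc5, Fkbp11 and Pdia5, were not among them. A match describes letters in a window and does not show that a factor binds there.

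The shorter element TGACGTGG, known as the core of the unfolded protein response element, was found on either strand in the windows of 193 of 27025 genes (0.714%), of 40 of the 2918 tested genes (1.37%), of 7 of 35 ER to Golgi transport genes (20%) and of 2 of 29 ER folding genes (6.90%). The letters CCACG are common to both elements, and 2 genes held both, overlapping. The 4 stretches below are a selection, again on the gene's strand with the element in capitals. They belong to the strongly raised Txndc5, Kdelr3 and Sec24d and to the COPI coat subunit Copb1, which rose by 0.94. Txndc11, Copb2, Arf1 and Stx5a held the element too and are not shown. A link between the element and the size of a rise was not tested.
Txndc5, chr13:38528025-38528072, gene on the minus strand, motif on the same strand: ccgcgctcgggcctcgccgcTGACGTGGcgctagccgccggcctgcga
Kdelr3, chr15:79516358-79516405, gene on the plus strand, motif on the opposite strand: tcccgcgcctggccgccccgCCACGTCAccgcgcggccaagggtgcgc
Sec24d, chr3:123267450-123267497, gene on the plus strand, motif on the same strand: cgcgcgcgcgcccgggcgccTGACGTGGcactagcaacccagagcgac
Copb1, chr7:114254681-114254728, gene on the minus strand, motif on the opposite strand: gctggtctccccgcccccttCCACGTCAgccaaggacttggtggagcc
No rule gene and no goblet marker outside the rule with a window (3 and 14 genes) held either element.

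Granule and exocytosis genes were higher in 12 of 13 tested, of 19 listed (median 2.17). Besides Rep15 and Syt7 these included Sytl2 (3.38), Rab27b (2.88) and Rab3d (2.62), which tether and dock secretory granules. Rab27b stood at 269, 299 and 399 CPM in goblet wells and at 14.4, 32.7 and 114 CPM in other wells (SE 0.18, adjusted p = 1.06e-07). The general fusion factor Stxbp2 was not called (0.20).

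Of 16 ion transport genes listed, 11 were tested and 7 were lower, against 30.0% of all genes (median -0.54). Another 3 were higher, near the 27.0% of all genes called higher. The chloride and bicarbonate channel Cftr was lower, with 0, 20.4 and 52.1 CPM in goblet wells against 107, 164 and 257 CPM in other wells (-2.80, SE 0.26, adjusted p = 1.57e-06). The potassium channel Kcnq1 (-2.49) and the bicarbonate cotransporter Slc4a4 (-1.86) were lower as well. No goblet pool reached any other pool for these 3 genes, and the share of all tested genes with such a gap is not given here. The genes that rose were Slc12a8 (3.50) and the calcium pumps Atp2a3 (2.89) and Atp2c2 (2.65).

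**Figure D3:**
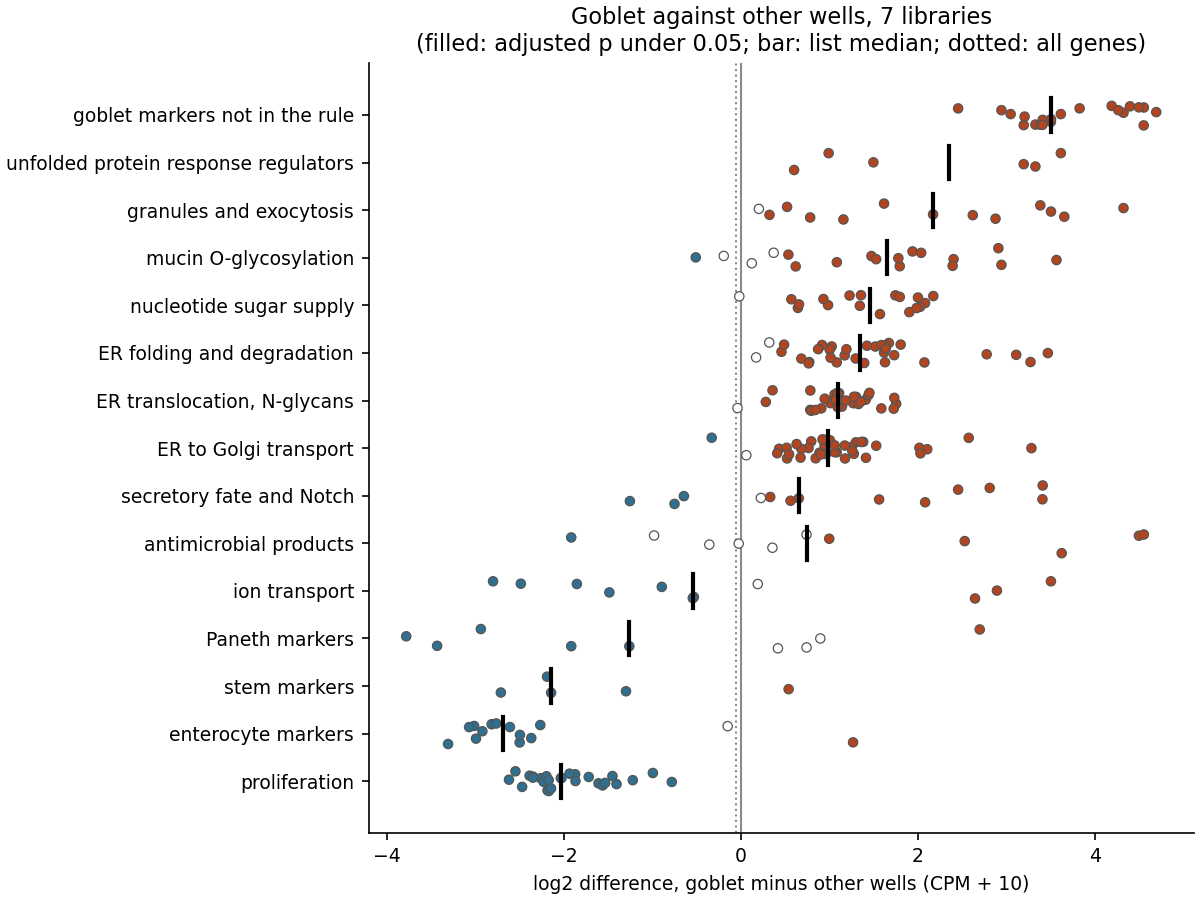
Log2(CPM + 10) difference, goblet minus other wells, for each tested member of 15 lists; filled points passed adjusted p under 0.05 (orange higher, blue lower), open points did not, thick bars are list medians and the dotted line is the median of all genes (-0.05). Medians of the secretory pathway lists lie right of the dotted line, with St3gal4 (-0.51) and Sar1b (-0.33) left of it, while medians of proliferation and enterocyte markers lie left, with Krt20 (1.27) on the right.

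Proliferation genes other than the 2 limit genes were lower in 27 of 27 tested, of 36 listed (median -2.04). The wells were split by Mki67 and Top2a, so this is a description: Pcna, the replication clamp, stood at 106 to 162 CPM in goblet wells against 471 to 583 CPM in other wells. Enterocyte markers were lower in 12 of 14 tested (median -2.69), with Krt20, a keratin of differentiated epithelium, higher (1.27, SE 0.25, adjusted p = 8.49e-04) and Fabp2 not called (-0.15). Stem cell markers were lower in 4 of 5 tested, and Prom1 was higher (0.54). Immediate-early genes were higher in 7 of 8 tested (median 0.94), with Fos at 216, 381 and 645 CPM in goblet wells and 80.5, 125 and 179.8 CPM in other wells (1.60). Ribosomal protein genes were higher in 5 and lower in 8 of 78 tested (median -0.03), and nuclear genes of the respiratory chain were higher in 2 and lower in 45 of 71 tested (median -0.35).

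Among the 15 largest falls with the same sign in every library were the alpha-defensins Defa20 (-3.80), Defa22 (-3.78) and Defa21 (-3.43), the granin Chgb (-3.51), the disaccharidase Sis (-3.31), the scavenger receptor Dmbt1 (-3.15), the apolipoproteins Apoa1 (-3.07) and Apoa4 (-3.0), the fatty acid binder Fabp1 (-3.02), AI747448 (-2.95), Amica1 (-2.92), Ccl25 (-2.88), Reg1 (-2.88) and Cnn3 (-2.87). Dmbt1 had 1601 to 2532 CPM in the other pools of all 7 libraries against 46.5 to 754 CPM in goblet wells. The alpha-defensins are near-identical copies whose reads may be shared among genes, so single members are uncertain. All 3 lost their call when the rule share was lowered to 1% (adjusted p = 0.237 for Defa20, 0.0966 for Defa22 and 0.167 for Defa21).

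Markers of other cell types were read within goblet wells to see what else the gate holds. No goblet well passed the tuft gate (0 of 389, which allows a share of up to 0.771%), 1 passed the enterocyte gate and 2 the enteroendocrine gate. The Paneth gate (Lyz1, Defa17, Defa22, Defa24 and Mmp7 at 1% or more of molecules) was passed by 44 goblet wells (11.3%), 33 of 230 in GK5b and 11 of 159 in GK5a. In those 44 wells the Paneth gate genes took a median of 1.57% of molecules and 8.28% at most, against a median of 15.9% in the 42 Paneth-gate wells without a goblet signature. They held a median of 4288 molecules, against 7498 in the other 345 goblet wells. No doublet caller was run, and whether these wells hold 1 cell or more was not tested. Without every well that passed a second gate, 342 goblet wells were left, and 979 genes were higher and 1241 lower.

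Summed over the whole list of 12 Paneth markers, goblet pools held 2306, 4378 and 10768 CPM (lowest, median, highest) and other pools 2170, 4829 and 10741 CPM. Of 9 tested, 5 were lower, and the matrix protease Mmp7 was higher, with 409.8, 1198 and 2376 CPM in goblet wells against 50.3, 103 and 506 CPM in other wells (2.70, SE 0.29, adjusted p = 6.05e-06). The lectin Itln1 (0.74, adjusted p = 0.172) and Defa24 (0.42, adjusted p = 0.484) were not called. Enteroendocrine markers summed to 220, 458 and 894 CPM in goblet pools against 236, 1956 and 2843 CPM in other pools, with Pax4, Pax6, Scg2 and Resp18 at 0 in goblet wells. Stromal markers summed to 0 to 0.693 CPM in goblet pools, with Col1a1, Col1a2, Vim, Pecam1 and Sparc at 0. Immune markers summed to at most 11.3 CPM, with Cd3e, Cd3g, Cd8a and Ccl5 at 0.

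Thinned to 2000 molecules a well, the presence of a transcript could be compared across depths. Enterocyte-gate wells of GK5a serve as the reference. They had a median of 4327 molecules before thinning, against 10873 in GK5b and 4248 in GK5a goblet wells. Only 1 other well of GK5b passed that gate, so the reference does not cover stray transcripts on the GK5b plates. Before thinning, Muc2 was detected in 100% of other wells of each GK5b library, against 28.5% to 66.7% in GK5a libraries. The part of stray transcripts in the GK5b shares below was not tested. Spink4 was present in 100% of 213 GK5b and 96.8% of 124 GK5a goblet wells, against 10.9% of 55 enterocyte-gate wells. Before thinning it was present in every goblet well of both codes, against 21.4% of enterocyte-gate wells. Atoh1 was present in 57.7% and 54.8% of GK5b and GK5a goblet wells, against 1.82% of enterocyte-gate wells. The Paneth transcripts Lyz1 (52.6% and 37.1%, against 16.4%) and Defa24 (46.0% and 29.0%, against 3.64%) were spread over many goblet wells at low level, although in GK5a the 3 richest wells carried 44.8% of all goblet Lyz1 molecules. Mmp7 was present in 71.4% and 54.0%, against 0 of 55 enterocyte-gate wells, which allows a share of up to 5.45%. The hormone gene Sct was present in 28.2% of goblet wells of either code, against 3.64% of enterocyte-gate wells, and the granin Chga in 0.939% and 0.806%, against 5.45%. Before thinning these shares were 85.7% and 59.7% for Lyz1, 67.0% and 35.8% for Defa24, 82.6% and 60.4% for Mmp7, 66.5% and 45.9% for Sct, and 83.5% and 83.0% for Atoh1, GK5b first.

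In pooled wells, 7 of the 24 enteroendocrine markers listed were tested, 1 was higher and 2 lower (median -1.12). The 1 called higher was Sct. It was higher in goblet wells in 7 of 7 libraries, with 140.3, 203 and 251 CPM against 16.6, 33.9 and 85.4 CPM in other wells (2.11, SE 0.23, adjusted p = 5.69e-06). The lectin Reg4, a marker shared by deep secretory and enteroendocrine cells, was higher as well (2.53, SE 0.49, adjusted p = 7.30e-04), but it sat in few wells: its 3 richest of 389 goblet wells carried 31.9% of its molecules, and it was present in 18.8% of GK5b and 29.0% of GK5a thinned goblet wells.

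**Figure D4:**
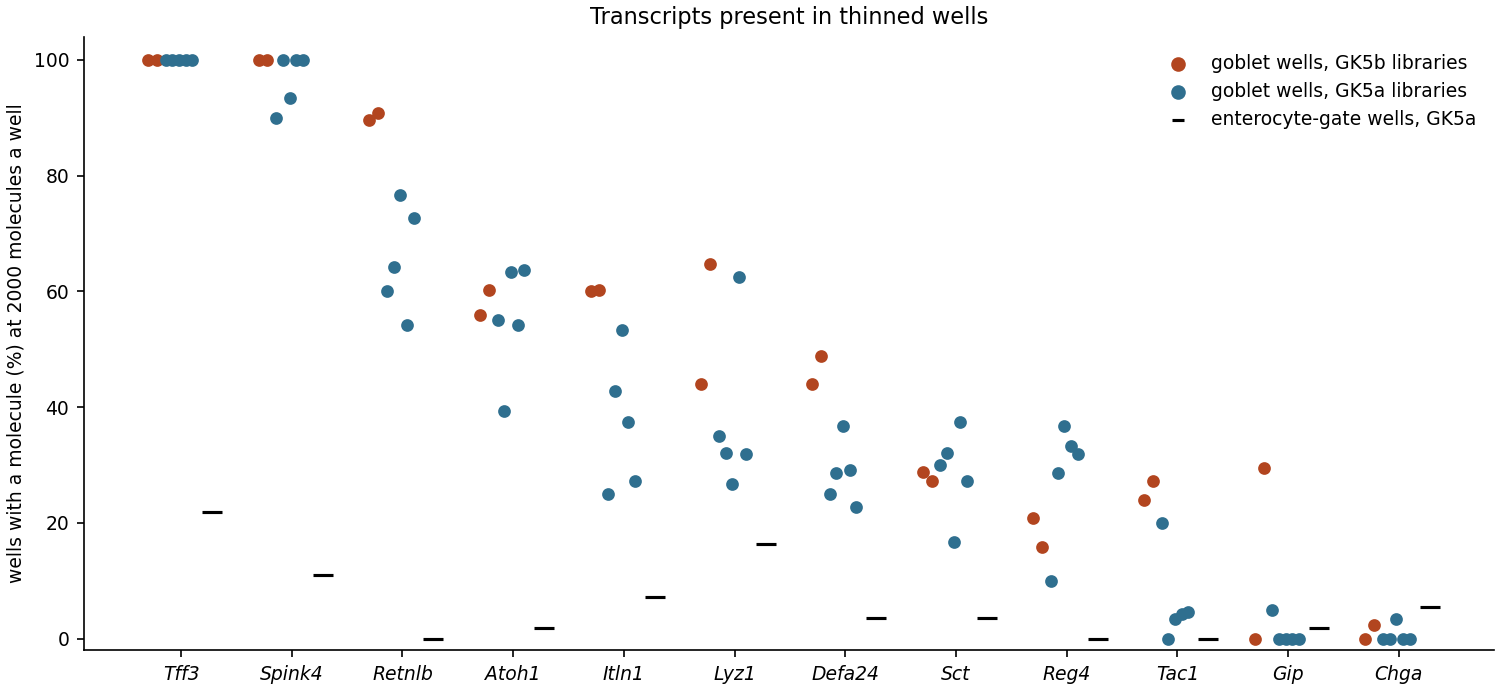
Percentage of wells, thinned to 2000 molecules, that hold at least 1 molecule of each transcript, with 1 point a library for goblet wells (GK5b orange, GK5a blue) and a dash for enterocyte-gate wells of GK5a. Spink4 lies between 90% and 100% in every library, Atoh1 between 39.3% and 63.6%, and Gip is at 29.5% in GK5b library 2 and at 0% in GK5b library 1.

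Goblet wells that carried more of the rule genes also carried more of some other transcripts. Over wells of the same library, the share of the rule genes had a median Spearman rho over 7 libraries of 0.73 with Lypd8 (a secreted antibacterial protein of the gut surface), 0.61 with Krt20, 0.60 with Fabp2, 0.56 with S100a6, 0.56 with Guca2a and 0.55 with Klk1, positive in 7 of 7 libraries for each. It was 0.26 with Spink4, -0.07 with Atoh1, -0.15 with Creb3l1 and -0.23 with the chemokine Ccl9. These are descriptions over wells that share library and depth.

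Mature goblet wells were next set against the 95 cycling goblet-signature wells of 6 libraries (65 and 9 in GK5b, 10, 3, 4 and 4 in GK5a libraries 2 to 5). The comparison asks what differs between goblet-signature wells with under 5 and with 5 or more cycle molecules. It does not set wells without cycle transcripts apart. Of 389 mature wells, 207 held no Mki67 or Top2a molecule, 92 of 230 in GK5b and 115 of 159 in GK5a. Of 3756 genes, 511 were higher in mature goblet wells (13.6%) and 148 lower (3.94%), around a median of 0.32. The balance rests on the scaling: without scaling factors 137 were higher and 230 lower. Goblet markers outside the rule were higher in 17 of 21 tested (median 1.75). Spink4 had 16669 and 19163 CPM in mature wells of GK5b and 6080 to 16227 CPM in GK5a, against 7248 and 4704 CPM in cycling wells of GK5b and 2395 to 4494 CPM in GK5a (1.75, SE 0.18, adjusted p = 1.83e-04). Retnlb (2.23), Guca2a (1.83), Scin (2.49) and Rgs2 (3.01) rose in 6 of 6 libraries.

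Of 15 fate genes tested, 3 were called higher (20%, against 13.6% of all genes), and their median difference was 0.37 against 0.32 for all genes. Spdef (1.79, adjusted p = 0.0474), Foxa3 (1.15) and Klf4 (1.01) were those called. Atoh1 stood at 631 and 629 CPM in mature wells of GK5b and 419 to 533 CPM in GK5a, against 515 and 365 CPM in cycling wells of GK5b and 291 to 531 CPM in GK5a, and was not called (0.37, SE 0.17, adjusted p = 0.133). Dll1 (0.25, SE 0.26) and Hes1 (0.52, SE 0.47) were not called either, which does not show that they are equal. Krt20 (1.75, SE 0.17), Lypd8 (1.10), Lyz1 (2.56), Itln1 (2.16) and Reg4 (2.59) were higher in mature wells. Goblet wells that passed the Paneth gate were kept in this comparison. The 3 richest of all 389 goblet wells carried 18.9% of Lyz1 and 27.1% of Itln1 molecules. What such wells add to the rises of Lyz1, Itln1 and Reg4 was not tested. Proliferation genes were lower in 28 of 31 tested, a description since Mki67 and Top2a split the wells. Leaving out 1 library at a time left 151 to 254 genes higher and 98 to 186 lower, with 151 higher without GK5a library 2 and 98 lower without GK5b library 1.

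Against Paneth-gate wells, the neighbouring secretory class, goblet wells that did not themselves pass that gate were compared in the 5 libraries with at least 3 wells of each (GK5b library 2 with 5 Paneth-gate wells, and GK5a libraries 1, 2, 4 and 5 with 7, 11, 10 and 7). Of 2756 genes, 969 were higher in goblet wells (35.2%) and 51 lower (1.85%). The median gene was higher by 0.94, and by 1.38 without scaling factors, when 1927 were higher, so differences are best read against that median. Several transcripts listed as goblet markers were not called between goblet and Paneth-gate wells. Spink4 had 12802 CPM in goblet wells of GK5b library 2 and 3692, 11789, 4674 and 7256 CPM in those of GK5a, against 7560 CPM in Paneth-gate wells of GK5b library 2 and 1920, 12410, 3978 and 11420 CPM in those of GK5a (0.24, SE 0.23, adjusted p = 0.392). Retnlb (-0.08, SE 0.22), Ccl6 (-0.25, SE 0.21) and Ramp1 (-0.15, SE 0.40) were not called either. All 4 lay below the median gene. Foxa3 missed the threshold (1.39, adjusted p = 0.0511), and the other 16 of the 21 tested goblet markers were called higher.

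Other goblet genes were at or near 0 in Paneth-gate wells, or several-fold lower there. Scin stood at 477 CPM in goblet wells of GK5b library 2 and 498 to 830.0 CPM in those of GK5a, against 0 CPM in Paneth-gate wells of 4 libraries and 35.5 CPM in GK5a library 1. Atoh1 had 479.8 CPM in goblet wells of GK5b library 2 and 365 to 514 CPM in those of GK5a, against 252 CPM in Paneth-gate wells of GK5b library 2 and 0 to 136 CPM in those of GK5a (2.93, SE 0.49, adjusted p = 8.27e-05). Spdef (2.87), Dll1 (3.04), Txndc5 (2.83), Klk1 (2.54), Lypd8 (2.19), Guca2a (1.78), Hspa5 (1.58) and Xbp1 (1.53) were higher in goblet wells in 5 of 5 libraries. ER folding genes were higher in 18 of 32 tested (median 1.37) and nucleotide sugar genes in 14 of 16 (median 1.95). Reg4 was lower in goblet wells (-2.55, SE 0.40, adjusted p = 3.35e-05), as was the phospholipase Pla2g2a, at 12767 CPM in goblet wells of GK5b library 2 and 1569 to 8155 CPM in those of GK5a, against 83433 CPM in Paneth-gate wells of GK5b library 2 and 73011 to 125030 CPM in those of GK5a. Genes of the gate, such as Lyz1 and Mmp7, are not counted as results here.

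Against enteroendocrine-gate wells (6 libraries, 9 such wells in GK5b library 2 and 6, 11, 6, 8 and 7 in GK5a), 1272 of 3944 genes were higher in goblet wells (32.3%) and 271 lower (6.87%), around a median of 0.56. Without scaling factors 624 were higher. All 21 tested goblet markers were higher (median 4.93). Klf4 had 1105 CPM in goblet wells of GK5b library 2 and 917 to 1265 CPM in those of GK5a, against 16.9 CPM in enteroendocrine-gate wells of GK5b library 2 and 0 to 61.3 CPM in those of GK5a (5.01, SE 0.33, adjusted p = 3.32e-08). Spdef was at 0 in all 6 enteroendocrine pools and at 221 to 407 CPM in goblet pools. The endocrine fate factor Neurog3 (-2.96, adjusted p = 0.00830) and Sox4 (-2.33, adjusted p = 0.00666) were lower in goblet wells. Foxa1 (0.35), Hes6 (0.05), Vamp2 (-0.40) and Stxbp2 (-0.27) were not called. Atf6 was the 1 regulator of the unfolded protein response that was lower in goblet wells (-1.61).

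**Figure D5:**
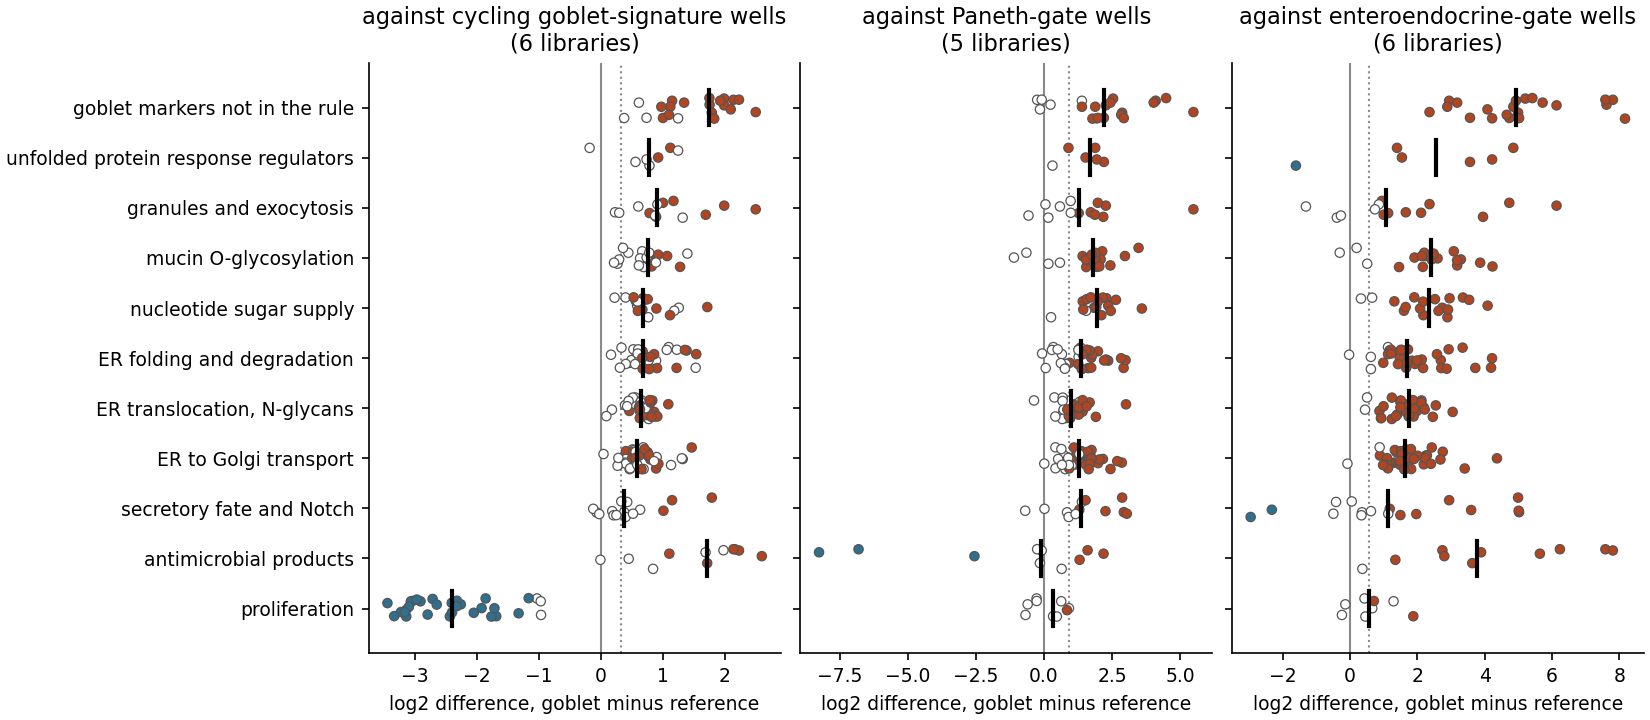
Log2(CPM + 10) difference, mature goblet minus the named wells, for members of 11 lists; filled points passed adjusted p under 0.05, open points did not, thick bars are list medians and the dotted line is the median of all genes (0.32, 0.94 and 0.56 from left to right). Goblet markers lie furthest right against enteroendocrine-gate wells, with a median of 4.93, and 4 of them lie near 0 against Paneth-gate wells.

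Goblet wells of GK5b and GK5a were then compared with each other, with 2 libraries against 5. Of 3531 genes, 5 were higher in GK5b (0.142%) and 0 lower (0.0%) by limma. At an unadjusted p under 0.05 there were 258 higher and 59 lower. Retnlb had 5615 and 7174 CPM in GK5b goblet wells, against 1557, 1848, 2525, 1558 and 2304 CPM in GK5a (log2 difference 1.72, SE 0.22, adjusted p = 0.00993). Reg3g, a C-type lectin that kills Gram-positive bacteria, had 5850 and 7407 CPM in GK5b against 2756, 2068, 2195, 1978 and 981 CPM in GK5a (1.79, SE 0.30, adjusted p = 0.0394). For both genes each GK5b library lay above each GK5a library, which the choice of genes to name required. Pdia3, an ER disulfide isomerase, had 1004 and 883 CPM in GK5b against 283, 329, 413, 319 and 452 CPM in GK5a (1.39, SE 0.21, adjusted p = 0.0303). Reep5, an ER membrane shaping protein, had 175 and 161 CPM against 27.4, 33.5, 39.1, 20.2 and 50.9 CPM, GK5b first (2.05, SE 0.34, adjusted p = 0.0381).

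The tachykinin gene Tac1, known as an enterochromaffin transcript, had 313 and 446 CPM in GK5b goblet wells against 54.9, 27.9, 67.0, 45.5 and 6.36 CPM in GK5a (3.11, SE 0.49, adjusted p = 0.0303). It was detected in 106 of 230 GK5b goblet wells, of which 4 also held Chga and 16 held Chgb, and in 17 of 159 GK5a goblet wells, of which 1 held Chga and 1 held Chgb. In all, 26 GK5b and 8 GK5a goblet wells held Chgb. Thinned to 2000 molecules, Tac1 was present in 25.4% of GK5b and 5.65% of GK5a goblet wells, in 5.15% of GK5b and 2.23% of GK5a other wells, and in 0 of 55 enterocyte-gate wells. GK5a library 1 reached 20% and the other 4 GK5a libraries at most 4.55%. Before thinning, 46.1% of GK5b and 10.7% of GK5a goblet wells held Tac1. Gip, another hormone gene, stood otherwise: before thinning it was present in 74.2% of goblet wells and 76.8% of other wells of GK5b library 2, where 3 other wells carried 84.0% of the other wells' molecules, and in 0 of 133 goblet wells of GK5b library 1 (up to 2.26% allowed). A share that is alike in both classes does not set goblet wells apart, and the source of these Gip molecules was not tested.

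None of the 5 calls remained when either GK5b library was left out, which leaves 1 library against 5, with the spread taken from GK5a alone and the lone library assumed to vary like it. The differences themselves stayed positive under every alternative run, between 1.28 and 1.87 for Retnlb, 1.51 and 1.94 for Reg3g, 1.22 and 1.45 for Pdia3, 1.38 and 2.33 for Reep5, and 2.28 and 3.52 for Tac1. Retnlb alone of the 5 remained without GK5a library 2, without GK5a library 4 and without scaling factors. Without GK5a library 1 there were 12 genes higher, the 5 among them, and precision weights gave 52 higher and 13 lower. All 5 remained without the wells that passed a second gate. The difference between the codes was also tested against the other wells of each library: of 3816 genes, 0 were called in either direction (0.0%, limma), with 138 higher and 122 lower at an unadjusted p under 0.05. That difference of differences was -0.93 for Retnlb (adjusted p = 0.966), -0.19 for Pdia3 (adjusted p = 0.977), 2.02 for Reg3g (adjusted p = 0.109) and 2.85 for Tac1 (adjusted p = 0.563). Reep5 was not among the genes of that test, being below its limit on low values. Pdia3 was higher in other wells of GK5b too, at 423 and 255 CPM against 100.4, 100.2, 116, 116 and 108 CPM in GK5a. In GK5b library 1, 65 of the 131 other wells were cycling goblet-signature wells, so its other pool is not free of goblet cells. In the difference of differences 0 of 21 tested goblet markers were positive (median -1.41). It therefore does not show whether the Retnlb and Pdia3 differences extend beyond goblet cells. Summed Paneth markers averaged 8791 CPM in GK5b goblet pools and 3627 CPM in GK5a goblet pools. Summed enterocyte markers averaged 1904 CPM in GK5b and 3668 CPM in GK5a goblet pools, with a median difference of -0.96 over 8 tested and 0 of them positive. Proliferation genes had a median of -0.47 over 9 tested, with 0 positive. No gene of these 3 lists was called, and their part in the differences between codes was not tested.

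None of the tested members of the O-glycosylation (22), nucleotide sugar (18), granule (15) and fate (15) lists was called. Only 5 of 3531 genes were called at all (0.142%), so lists of this size would mostly hold none. Differences were positive for 21 of 22 O-glycosylation genes and 17 of 18 nucleotide sugar genes. They were positive for 11 of 15 granule genes, 8 of 15 fate genes and 20 of 21 goblet markers, against 2283 of all 3531 genes. Spink4 had 14981 and 17377 CPM in GK5b goblet wells and 5006, 14611, 13726, 5475 and 9394 CPM in GK5a (0.88, SE 0.37, adjusted p = 0.489). Atoh1 had 567 and 570.4 CPM in GK5b and 595, 480.2, 374, 455 and 452 CPM in GK5a (0.28, SE 0.20, adjusted p = 0.734). With 2 libraries against 5, an uncalled difference does not show that the codes are equal.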

How the data were processed

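Single cells of small intestinal crypts were sorted into 384-well plates and sequenced by CEL-seq2 with spike-in RNA. The aligner BWA (0.6.2-r126) and the mm10 assembly are named in the submitters' processing notes. The counting software, its use of strand and the sorting gates were not given in the sources used here. Values deposited by the authors are molecule estimates per gene and well, on another scale than whole counts: each corrects the number of random barcodes seen, out of 4096, for molecules that share one, and all came out whole within 0.001 when turned back. Totals ran from 1.02e+06 to 4.83e+06 molecules a library. No mitochondrial genes are in the tables used.

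Wells with 1000 or more molecules of mouse genes were used, no doublet caller was run, and the 3 libraries of picked cells were not analysed here. Well numbers 1 to 384 recur in every library and do not tell whether libraries share cells. The 8 rule and limit genes were left out of totals and tests. Molecules were summed per library and class (3 or more wells), scaled to CPM by TMM, and limma 3.58.1 (R 4.3.3) was run on log2(CPM + 10), with library as a block in goblet against other comparisons, a mean of at least 50 CPM and a Benjamini-Hochberg adjusted p under 0.05. Such fold changes understate low genes, and those against pools at 0 depend on the added 10 CPM. Gates were 1% (Paneth), 0.5% (enteroendocrine), 2% (enterocyte) and 0.3% (tuft) of molecules in their marker genes. Library shares have 95% exact intervals, and a limit for a share of 0 uses 3 counts; both cover counting error only. Permutation tests were exact (scipy 1.17.1, Python 3.11.15). Genes named are the 15 largest and 15 lowest changes with the same sign in every library, up to 8 per direction between codes, and members of the lists; some are not reported here. The members and lists were chosen with earlier results of these data known. Chi-square per gene between goblet pools was 2.04 to 3.92 within a code, so no libraries were duplicates. The alternatives covered the gates, low-value filter, pseudocount, scaling, block, weights and each library left out; the fits were tested on simulated data.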

Additional observations from a re-analysis of the deposited data

Results flagged for a closer look

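In the 5 GK5a goblet pools, 45 values were screened for 1 library far from the other 4, which chance does in about 1 in 20 groups. Defa22 was at 5.21 CPM in GK5a library 4 and at 0 in the other 4. It was detected in only 3.125% of the 32 goblet wells of that library. Chgb was at 276 CPM in GK5a library 3 and at 0 to 19.9 CPM in the others. All its molecules in GK5a library 3 came from 5.56% of the 36 goblet wells there. These 2 values reflect very few wells and not a shift of a whole library. Apoa1 was at 449.9 CPM and Apoa4 at 47.6 CPM in GK5a library 1, against 17.3 to 73.1 CPM and 0 to 6.65 CPM in the others.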

How the results depend on the processing

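No named gene, well number, depth or share changed direction under any alternative run, but the balance of calls did turn: goblet against other wells gave 1011 higher and 828 lower with the mean CPM per well and 1075 higher and 785 lower in GK5b alone, and the comparison with cycling wells turned without scaling. Goblet wells numbered 256 without GK5b library 1 and 256 to 360 over all libraries left out in turn. Of single-gene values under the alternatives, 922 kept their direction and call and 55 kept the direction only. In goblet against other wells, 3141 genes were lower with no filter on low values, and 300 were higher and 289 lower at a mean of at least 200 CPM. The share of calls that were higher was 47.4%, against 35.2% with rule genes kept in totals, 31.8% with no filter and 57.8% in GK5b alone. Within GK5a alone, molecules per well differed by -0.50 (exact p = 0.0625) and genes per well by -114; within GK5b alone, by -0.79 (exact p = 0.5) and -157.5. Without the replicate block 951 genes were higher and 999 lower. Other wells restricted to under 5 Mki67 and Top2a molecules, a choice made after seeing the data, gave 863 higher and 1089 lower.

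Between the codes, where 5 were higher, 0 were higher at a rule share of 4%, with under 2 cycle molecules or with no limit on them; 1 with no scaling factors or median-of-ratios factors; 2 and 8 with pseudocounts of 1 and 50 CPM; 122 with no filter; 9 with the mean CPM per well; 52, with 13 lower, under voom weights; and 0 to 12 with 1 library left out. No paired analysis was possible because GK5b numbers are in accession order.

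The next alternatives were chosen after seeing the data. Against cycling goblet-signature wells, 151 to 254 genes were higher and 98 to 186 lower with 1 library left out, 137 higher and 230 lower without scaling, and 328 higher with no replicate block. Without scaling, 1927 genes were higher against Paneth-gate wells and 624 against enteroendocrine-gate wells. The cause of these shifts was not tested. Depth limits single wells: 52 goblet wells were too shallow to thin.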
